A study of Mus musculus with 24 samples.

Results

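The genes described here encode the nuclear subunits of the 5 complexes of mitochondrial oxidative phosphorylation, measured by RNA sequencing in mouse liver. They were chosen by symbol (Nduf a, b, c, s and v genes for complex I, Sdha to Sdhd for complex II, Uqcr genes and Cyc1 for complex III, Cox4 to Cox8 genes for complex IV and Atp5 genes for complex V), with at least 1 FPKM (fragments per kilobase of transcript and per fixed number of mapped fragments) in at least 6 of 24 libraries. Of 83 genes whose symbol matched, 80 passed: 37 of complex I, 4 of complex II, 9 of complex III, 13 of 16 of complex IV and 17 of complex V, among 10697 genes that passed the same minimum and 17537 in the tables. The 3 that did not pass were Cox4i2, Cox6a2 and Cox8b. The livers came from male C57BL/6 mice of 20 to 30 g that carried no transgene or deletion named in the labels, and each of 4 groups has 6 libraries. All mice were dosed by gavage: the vehicle group with 0.5% carboxymethylcellulose (CMC), the ethanol group with 1 g/kg ethanol, the DEHP group with 2500 mg/kg di(2-ethylhexyl) phthalate, and the combination group with both agents at these doses. The labels name CMC for the vehicle group alone, so if the other groups did not receive it, carrier and treatment cannot be told apart. They give 12 mice per group and do not say how mice map to libraries, how long the dosing lasted or when livers were taken, so the p-values measure the spread between these libraries, part of which may be technical.

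In oxidative phosphorylation, complexes I and II pass electrons from NADH and succinate to ubiquinone, complex III passes them on to cytochrome c, and complex IV passes them to oxygen. Complexes I, III and IV pump protons across the inner mitochondrial membrane, and complex V, the ATP synthase, uses the return flow to make ATP. The mitochondrial genome encodes some subunits of every complex except complex II, and these were not analysed here. Hepatocytes use the chain for the oxidation of fatty acids and of ethanol's products, and DEHP, a plasticiser, activates the fatty acid receptor PPARalpha in rodent liver. The label of the gene set holds for most but not all members: Ndufa4 is now assigned to complex IV, Cox7a2l takes part in joining complexes, and Atp5s and Atp5sl, which RefSeq lists as Dmac2l and Dmac2, are not structural subunits.

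Several members come as paralogs that encode the same subunit, and 2 such sets are described below: Cox6b1 with its testis-type paralog Cox6b2 in complex IV, and the c-subunit genes Atp5g1, Atp5g2 and Atp5g3, whose mature products form the same ring of complex V. Their promoters are shown because the genes of a set are described beside each other. Each sequence is the 250 bases before the start of transcription that RefSeq lists (build GRCm38.p6, minus strand, written 5′ to 3′), from chr7:30626115-30626364 for Cox6b1, chr7:4753095-4753344 for Cox6b2, chr11:96075632-96075881 for Atp5g1, chr15:102671048-102671297 for Atp5g2 and chr2:73911327-73911576 for Atp5g3. Capitals mark matches, on either strand, to the ETS core CCGGAAG, the NRF1 core TGCGCA, the ERR site TCAAGGTCA or the CCAAT box, which are motifs of factors known to act on respiratory genes or of general promoters.
Cox6b1: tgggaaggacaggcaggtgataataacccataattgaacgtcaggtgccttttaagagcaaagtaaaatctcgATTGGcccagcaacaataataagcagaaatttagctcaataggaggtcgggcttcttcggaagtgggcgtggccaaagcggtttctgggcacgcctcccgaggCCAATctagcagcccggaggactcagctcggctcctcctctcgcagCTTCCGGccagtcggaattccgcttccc
Cox6b2: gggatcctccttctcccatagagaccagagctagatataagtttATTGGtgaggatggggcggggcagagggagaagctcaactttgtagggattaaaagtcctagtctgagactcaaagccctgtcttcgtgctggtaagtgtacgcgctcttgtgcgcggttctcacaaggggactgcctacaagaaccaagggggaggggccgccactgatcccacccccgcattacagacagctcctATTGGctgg
Atp5g1: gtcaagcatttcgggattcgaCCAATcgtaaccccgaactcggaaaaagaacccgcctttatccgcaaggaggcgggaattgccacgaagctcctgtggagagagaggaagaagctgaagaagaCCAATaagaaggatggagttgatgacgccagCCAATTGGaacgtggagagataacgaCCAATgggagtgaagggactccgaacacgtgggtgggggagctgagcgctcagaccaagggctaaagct
Atp5g2: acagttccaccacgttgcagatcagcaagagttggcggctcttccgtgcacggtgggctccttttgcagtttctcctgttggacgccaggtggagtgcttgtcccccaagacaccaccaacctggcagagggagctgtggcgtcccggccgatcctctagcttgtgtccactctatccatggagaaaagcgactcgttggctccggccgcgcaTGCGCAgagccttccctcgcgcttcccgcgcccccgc
Atp5g3: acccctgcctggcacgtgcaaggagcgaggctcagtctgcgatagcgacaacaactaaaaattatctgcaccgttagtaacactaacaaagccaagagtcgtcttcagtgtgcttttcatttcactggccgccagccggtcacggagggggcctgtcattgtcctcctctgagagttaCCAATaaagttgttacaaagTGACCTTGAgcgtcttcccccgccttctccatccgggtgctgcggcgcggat
The Cox6b1 window holds an ETS core on the opposite strand 28 bases before the start and CCAAT boxes at 177 and 74 bases. The Cox6b2 window holds CCAAT boxes alone, at 206 and 9 bases. Atp5g1 has 5 CCAAT boxes, of which those at 95 and 92 bases overlap, Atp5g2 has an NRF1 core at 37 bases, and Atp5g3 has an ERR site at 52 bases and a CCAAT box at 72. Of the 80 members, 67 matched a RefSeq promoter by gene identifier, and over windows of 300 bases (250 before and 50 after the start) 16 of them (23.88%) held an ETS core, against 9.93% of 27025 genes. The NRF1 core, which reads the same on both strands, was held by 18 (26.87%, against 8.79%), the ERR site by 2 (2.99%, against 0.47%) and the CCAAT box by 30 (44.78%, against 41.06%). A match of letters describes the window and shows no binding.

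Library totals lay between 7324793 and 8016662 expected counts, with 13958 to 15114 genes above 0. Hepatocyte markers (8 genes, all present) summed to 59261 to 73270 FPKM in vehicle, 62310 to 75680 in ethanol, 45969 to 52648 in DEHP and 45601 to 50448 in the combination, so every library with DEHP lay below every library without it in this sum. Its largest part, Alb, was apart too, at 28988 to 39584, 28289 to 36949, 17613 to 26874 and 21359 to 25117 FPKM in the same order. Each of the other hepatocyte markers overlapped between libraries with and without DEHP. Adipocyte markers (7 genes) had median sums of 11.4, 6.08, 53.8 and 39.8 FPKM in the same order, carried mostly by Fabp4, while Adipoq, Plin1, Ucp1 and Retn had a median of 0 in every group. Kupffer cell, endothelial and stellate cell markers (6 genes each) overlapped between DEHP and vehicle, at 103 to 254 against 70.0 to 195 FPKM, 52.8 to 86.3 against 49.8 to 105 FPKM and 47.1 to 54.9 against 54.0 to 227 FPKM. In ethanol they were at 77.5 to 145, 39.6 to 55.6 and 35.2 to 53.4 FPKM, so every ethanol library was below every vehicle library for the sum of the stellate cell markers. Of these markers Dcn alone was apart, at 26.5 to 40.5 FPKM in ethanol and 41.6 to 58.9 in vehicle. Each of the others, Lrat, Rgs5, Des, Col1a1 and Col3a1, overlapped between ethanol and vehicle. Erythroid markers (3 genes), cholangiocyte markers (5) and lymphocyte markers (4) had median sums of 1159, 5.23 and 2.34 FPKM in vehicle and of 1433, 5.22 and 2.26 FPKM in DEHP. 3 libraries stood apart. Vehicle replicate 1 and combination replicate 6 had all 10 skeletal muscle markers above 0, with sums of 7361 and 5371 FPKM, whereas the group medians were 4.5 in vehicle, 1.92 in ethanol, 3.06 in DEHP and 2.31 in the combination. DEHP replicate 6 had a sum of 522 FPKM over 8 pancreatic acinar markers, which summed to at most 0.38 elsewhere. The part of these levels in the members' changes was not tested, and in bulk tissue fewer cells of a type and less RNA per cell cannot be told apart.

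The members rose in most of the chain after the combination, in fewer genes after DEHP and in fewest after ethanol, and a large part of each count was lost once each library's trend with transcript length was removed. Levels were compared with edgeR's quasi-likelihood test on the deposited expected counts. The hepatocyte and adipocyte marker sums moved with DEHP as well. Log2 changes are given with their standard error (SE), and called means an adjusted p below 0.05 (Benjamini-Hochberg, over all 10697 genes). Before removal of the trend, 28 members rose and 1 fell after ethanol, where 14.2% and 14.5% of all genes tested did. After DEHP, 45 rose and 1 fell, where 14.4% of all genes rose and 11.6% fell. After the combination, 68 rose and none fell, where 19.3% rose and 17.4% fell. Cox6b2, which reached 1 FPKM only in libraries with DEHP and so had to differ, is in the last 2 counts, which are 44 and 67 of 79 without it. The median log2 change of the 80 members was 0.18, 0.24 and 0.40 in these comparisons, and the median of all genes lay between -0.02 and -0.01. All 3 comparisons use the same vehicle libraries, so their values stand side by side and are not independent of each other.

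The length trend matters here because the members are short. The median transcript length in the deposited tables was 712.6 bases for the members and 2703.8 bases for all genes tested, and 55 members (68.75%) were under 1000 bases, against 8.38% of all genes. Short genes that are no members (841 under 1000 bases) also stood higher in treated livers, with median log2 changes of 0.16 after ethanol, 0.12 after DEHP and 0.23 after the combination, of which 20.0%, 21.5% and 36.5% rose. Genes of 1000 bases or more that are no members had medians of -0.03 in each comparison. At 500 bases, the fitted trend of single libraries (lowest, median and highest, log2) was -0.25, -0.12 and -0.09 in vehicle and -0.20, 0.02 and 0.14 in ethanol. It was -0.04, 0.01 and 0.08 in DEHP and 0.01, 0.14 and 0.28 in the combination. The trend of every DEHP and combination library thus lay above that of every vehicle library, while the ethanol libraries overlapped the vehicle ones. What sets this trend was not tested.

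With each library's trend taken out, 3 members rose and 1 fell after ethanol, where 12.8% and 11.1% of all genes did. After DEHP, 22 rose and 1 fell, where 13.1% and 9.99% did, and after the combination 29 rose and 1 fell, where 15.6% and 13.3% did. Without Cox6b2 the counts that rose were 21 and 28 of 79. The ethanol count thus went from above to below the share of all genes, while the DEHP and combination counts stayed above it. Under 1000 bases, where most members lie, 3.64% of the members and 4.76% of the other genes rose after ethanol. At 1000 bases or more these shares were 4.0% and 13.6%. All 3, 22 and 29 members that rose after removal had also risen before it. The median log2 change of the members became 0.05, 0.12 and 0.16. Members of 1000 bases or more had medians of 0.15, 0.22 and 0.34 before and 0.05, 0.13 and 0.15 after removal. The short members had medians of 0.20, 0.26 and 0.42 before and 0.04, 0.11 and 0.16 after. The removal took the short genes that are no members to medians between -0.03 and 0.01. Across 78 members (without Cox6b2 and Cox7a1), Pearson's r between log2 length and log2 change after the combination was -0.256 before and 0.209 after removal, as a description over genes of the same libraries. Of the 2 left out, Cox6b2 lay far outside the range of the rest after DEHP and the combination, and Cox7a1 after ethanol and DEHP. The ethanol count also moved with the scaling: it was 11 with total counts alone (no TMM factors) and 3 on TPM, a scale that moves the median of all genes by -0.15, and of all genes called after ethanol 49.5% were higher with TMM factors, 31.1% without TMM factors and 14.1% on TPM. The members' median after ethanol stayed above 0 on each scale. With single libraries left out, the ethanol count varied most: it was 43 without ethanol replicate 4, whose trend at 500 bases was the lowest of that group, and 19 without vehicle replicate 3 or ethanol replicate 5 or 6. After removal, the DEHP count was 14 without vehicle replicate 2 or DEHP replicate 2, and the ethanol count was 6 without vehicle replicate 1 or 5 or ethanol replicate 4.

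**Figure D1:**
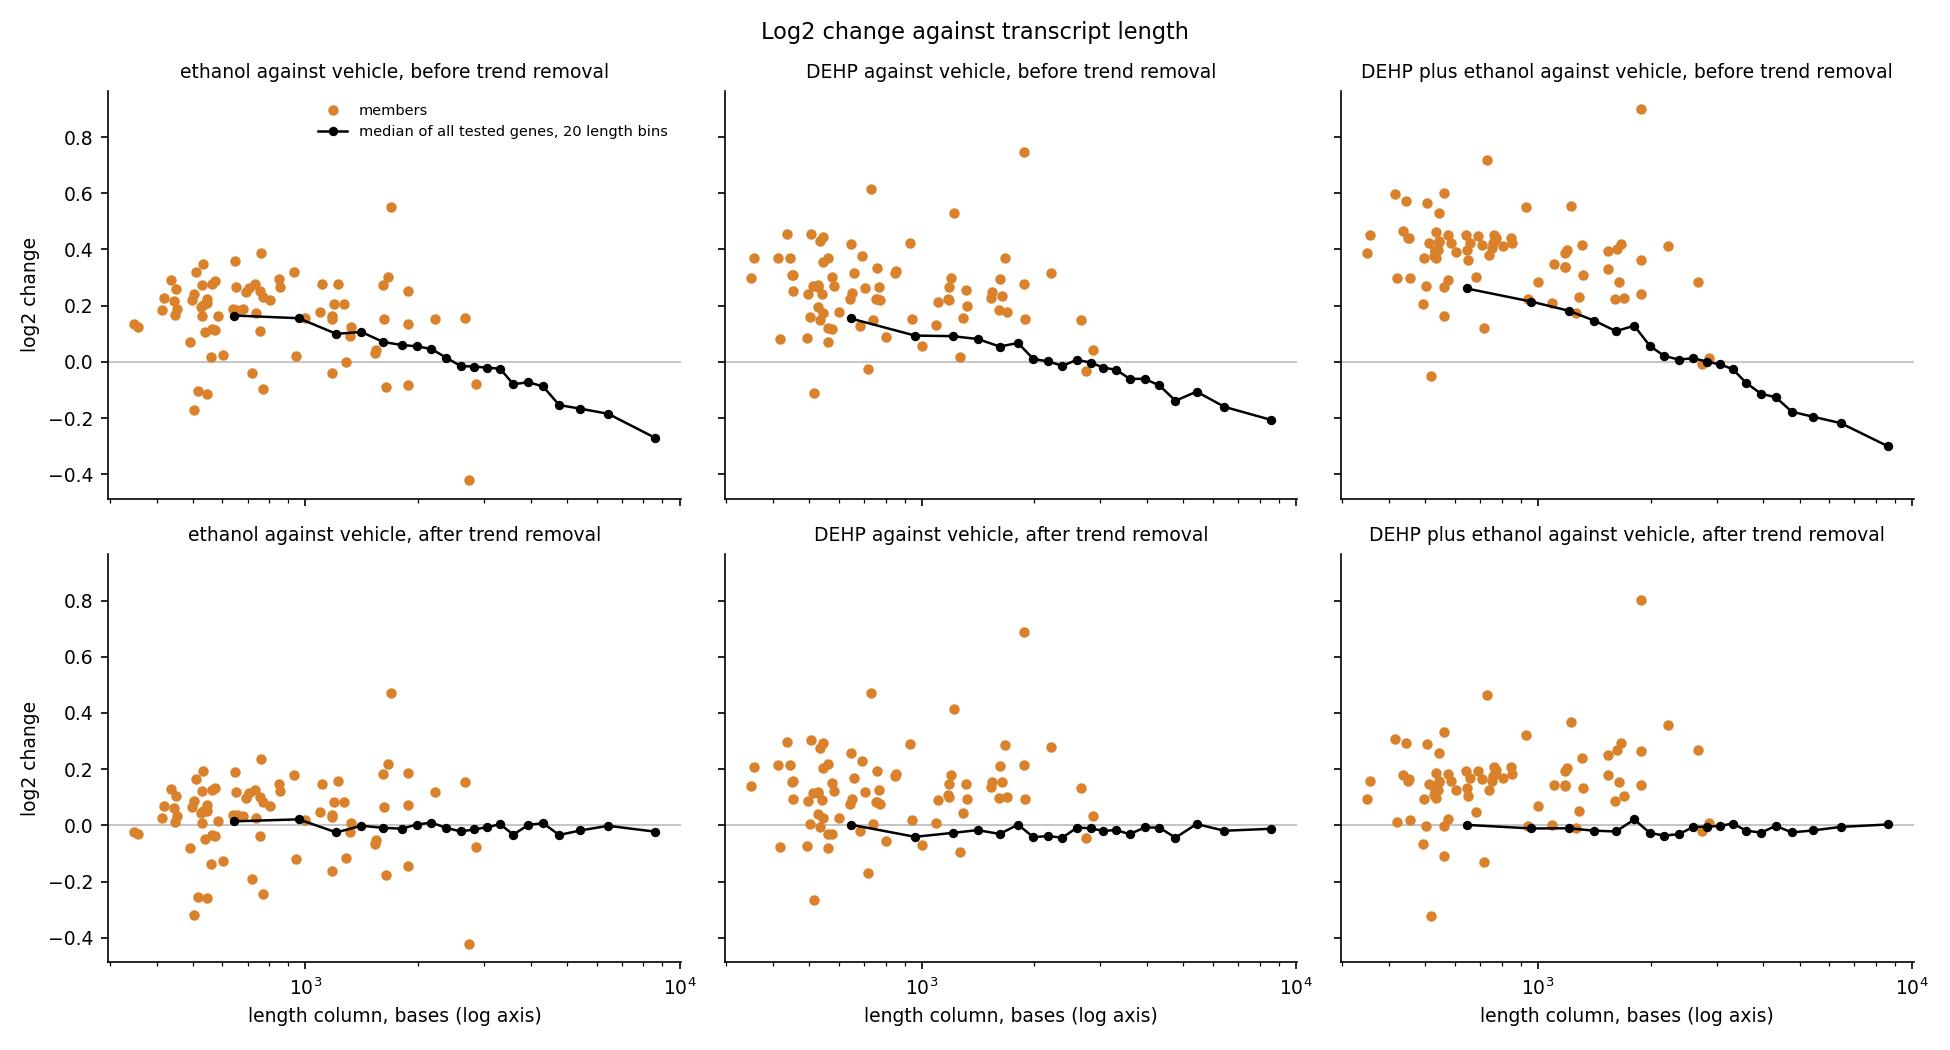
Log2 change against vehicle (y axis) by transcript length in bases (x axis, log scale) for ethanol, DEHP and the combination, before (top) and after (bottom) removal of each library's length trend. Points are members, without Cox6b2, Cox7a1 and Ndufa4l2, and the line joins medians of 20 length bins of all genes tested. After the combination, the shortest bin lies at 0.26 and the longest at -0.30 before removal. After removal the line is nearly flat, while the median of all members, those not drawn included, stays at 0.16.

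The median change was above 0 for all 5 complexes in every comparison with vehicle before removal of the trend, and complex II had the lowest. After the combination, the median log2 change was 0.39 for complex I, 0.22 for complex II, 0.42 for complex III, 0.42 for complex IV and 0.40 for complex V, and 31 of 37, 3 of 4, 8 of 9, 12 of 13 and 14 of 17 members rose. After DEHP the medians were 0.23, 0.14, 0.27, 0.27 and 0.24, and 17, 1, 6, 10 and 11 members rose. After ethanol they were 0.18, 0.08, 0.21, 0.23 and 0.22, and 11, 0, 4, 7 and 6 rose. Of all genes tested, 19.3% rose after the combination, 14.4% after DEHP and 14.2% after ethanol. The order of complexes I, III, IV and V was not tested, and their medians differ by less than the spread between libraries. After removal of the trend, the medians after the combination were 0.13, 0.03, 0.18, 0.16 and 0.16, with 12, 0, 4, 6 and 7 members that rose, and after DEHP 0.10, 0.04, 0.15, 0.12 and 0.15, with 8, 0, 4, 5 and 5. Of all genes, 15.6% then rose after the combination, 13.1% after DEHP and 12.8% after ethanol. The members that then rose after ethanol were Cox4i1, Cox6a1 and Atp5sl alone. The same shares of all genes stand against the counts for parts of complexes given further on. Complex II is also the complex with no member under 1000 bases. Each complex IV count after DEHP or the combination includes Cox6b2, which had to differ.

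Taken library by library, the median of all 80 members relative to the vehicle mean (log2) ranged from -0.15 over 0.03 to 0.15 in vehicle (lowest, median, highest), from -0.02 over 0.22 to 0.28 in ethanol, from 0.20 over 0.26 to 0.35 in DEHP and from 0.33 over 0.35 to 0.53 in the combination. Every DEHP and combination library lay above every vehicle library, while the ethanol libraries overlapped them. After removal, the ranges were -0.14, 0.01 and 0.14 in vehicle, 0.00, 0.04 and 0.06 in ethanol, 0.07, 0.12 and 0.21 in DEHP and 0.06, 0.15 and 0.24 in the combination. All 3 treated groups then overlapped vehicle, for DEHP and the combination through vehicle replicate 1 alone (0.14). The other 5 vehicle libraries reached 0.02 at most, below every DEHP and combination library, while the ethanol libraries overlapped them too. At the low end, vehicle replicate 2 lay as far out (-0.14). Skeletal muscle transcripts were present in vehicle replicate 1 and in combination replicate 6, which was the highest of its own group (0.24). Their part in these values was not tested. The members together held 1.03, 1.18 and 1.31% of a library's expected counts in vehicle, 1.16, 1.23 and 1.32% in ethanol, 1.36, 1.41 and 1.48% in DEHP and 1.44, 1.49 and 1.61% in the combination. By single genes, every treated library was above every vehicle library (FPKM) for 2 members after ethanol (Atp5sl and Cyc1), 25 after DEHP and 55 after the combination, where 3.9%, 7.24% and 10.7% of all genes were. The 25 and the 55 include Cox6b2, which had to differ because it passed the minimum only through libraries with DEHP.

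**Figure D2:**
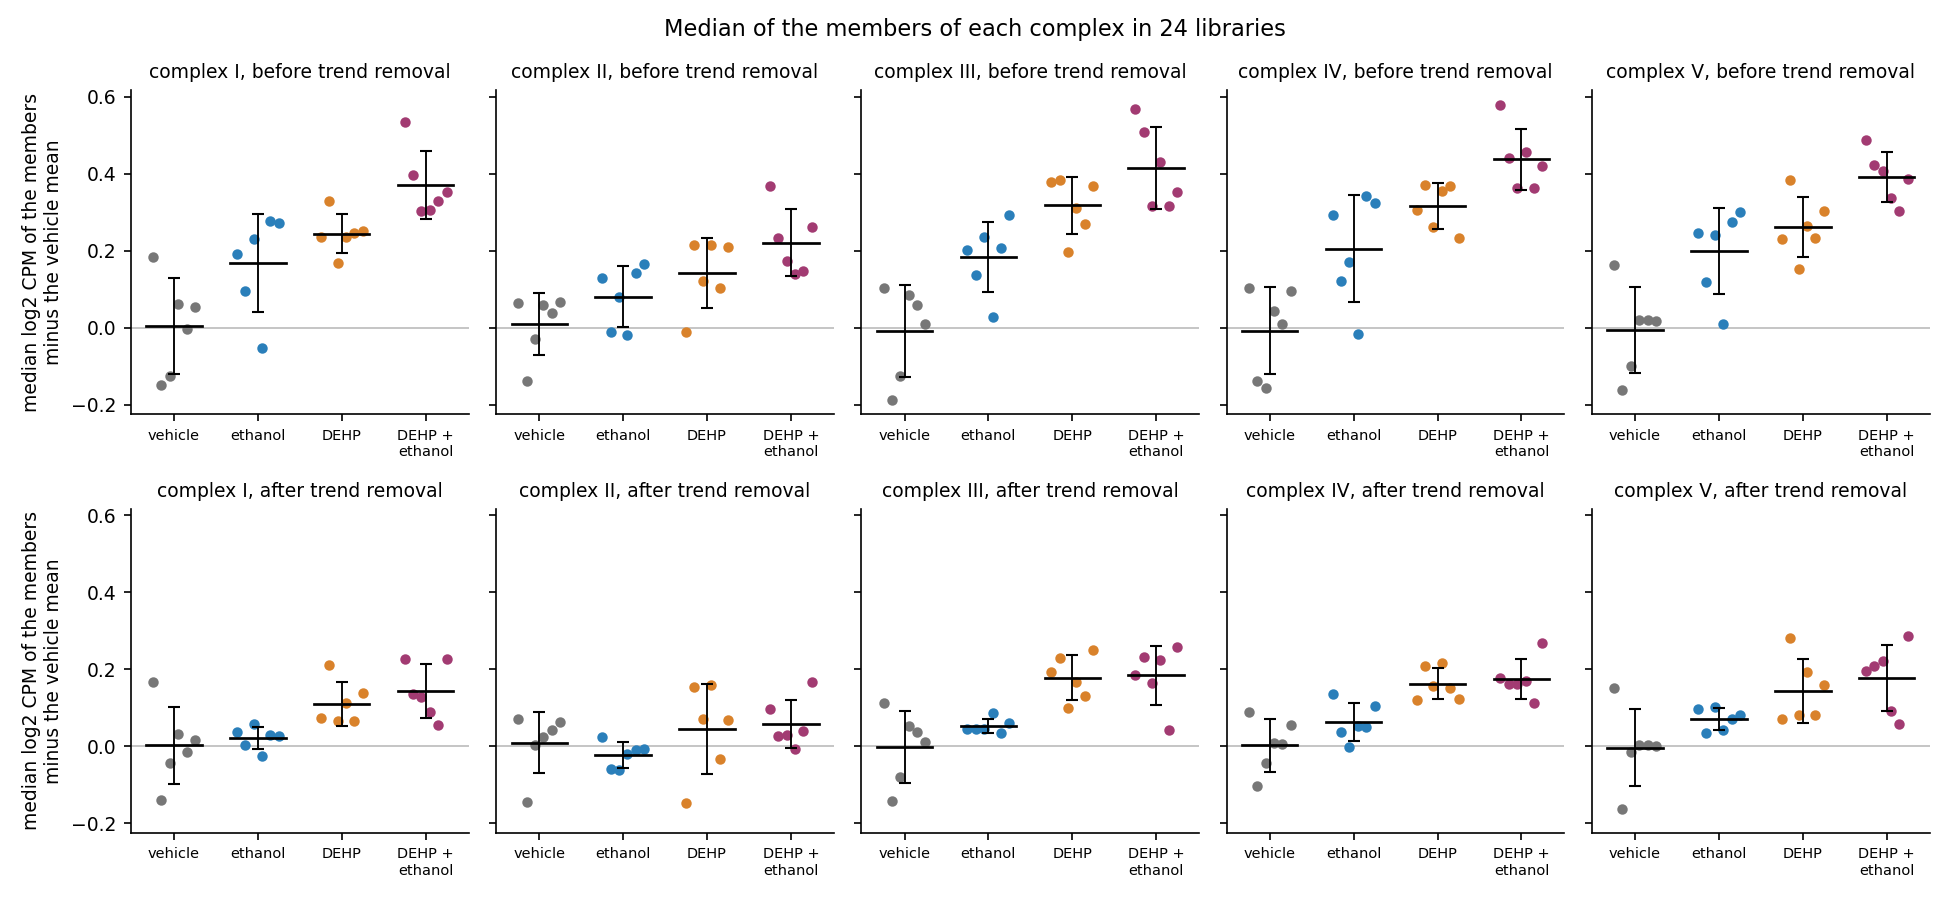
Median over the members of each complex of log2 CPM minus the vehicle mean (y axis), 1 point per library, with bars at the mean ± SD of 6 libraries, before (top) and after (bottom) removal of the length trend. Before removal the combination libraries of complex IV lie between 0.36 and 0.58, above all vehicle libraries, and those of complex II between 0.14 and 0.37; after removal the groups overlap more.

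In complex I, the core subunits that carry flavin and iron-sulfur clusters gave mixed results. Of the 7 core members, 6 rose after the combination before removal of the trend and 3 after it. Ndufs8, which holds iron-sulfur clusters, was at 91.2, 103 and 114 FPKM in vehicle (lowest, median, highest, here and for all members that follow), 105, 126 and 131 in ethanol, 124, 134 and 139.8 in DEHP and 132, 145 and 156 in the combination. It rose in all 3 comparisons, by 0.29 ± 0.07 (adjusted p = 0.00363) after ethanol, 0.32 ± 0.07 (adjusted p = 0.00168) after DEHP and 0.44 ± 0.07 (adjusted p = 2.73e-05) after the combination. Once the trend was removed it rose by 0.18 ± 0.06 (adjusted p = 0.0351) after DEHP and 0.21 ± 0.06 (adjusted p = 0.0112) after the combination. The ethanol change of 0.15 ± 0.06 (adjusted p = 0.0748) was then not called. Ndufv1, the subunit that binds NADH, ranged over 104, 120.3 and 144 FPKM in vehicle and 129, 143 and 155 in the combination. Its changes of 0.27 ± 0.08 (adjusted p = 0.0119) after ethanol and 0.22 ± 0.08 (adjusted p = 0.0279) after the combination were called before but not after removal (0.18 and 0.09). The latter call was also lost when single libraries were left out. Ndufv2, its iron-sulfur partner, rose after the combination by 0.39 ± 0.06 (adjusted p = 3.08e-05) and, with the trend removed, by 0.25 ± 0.06 (adjusted p = 0.00343).

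Ndufs1, the largest iron-sulfur subunit of complex I (chr1:63143592-63176822, mm10), went the other way. Its level was 40.5, 42.3 and 55.4 FPKM in vehicle, 26.8, 32.9 and 35.0 in ethanol, 31.0, 43.4 and 54.7 in DEHP and 37.7, 41.2 and 56.3 in the combination. All 6 ethanol libraries were below all 6 vehicle libraries, and no other member showed this. The share of all genes that lay below vehicle in this way was not counted, and 14.5% of all genes were called lower after ethanol. The log2 change after ethanol was -0.42 ± 0.11 (adjusted p = 0.00584), and -0.42 ± 0.11 (adjusted p = 0.00656) with the trend removed. Its transcript of 2743.7 bases is close to the median length of all genes. Against ethanol alone the combination was higher by 0.41 ± 0.11 (adjusted p = 0.00538). The interaction, which asks whether the 2 agents together differ from the sum of their log2 changes, was 0.45 ± 0.15 (adjusted p = 0.076) and was not called.

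Among the accessory subunits of complex I, all 10 of the Ndufb series rose after the combination before removal of the trend and 3 after it, and 15 of 18 others rose before and 6 after it. After the combination, Ndufa12 and Ndufa10 had the smallest adjusted p of complex I. Ndufa10 was at 83.7, 95.1 and 114 FPKM in vehicle, 104, 110.5 and 118 in ethanol, 121, 142 and 158 in DEHP and 128, 142 and 151 in the combination. Its DEHP and combination libraries were all above vehicle and overlapped each other. The log2 changes were 0.53 ± 0.08 (adjusted p = 2.38e-05) and 0.56 ± 0.08 (adjusted p = 7.99e-06). Without the length trend they were 0.41 ± 0.08 (adjusted p = 0.000247) and 0.37 ± 0.08 (adjusted p = 0.000631). Ndufa12 was at 97.3, 114 and 141 FPKM in vehicle, 119.7, 135 and 147 in ethanol, 146, 151 and 154 in DEHP and 158, 180.04 and 186 in the combination. Every combination library was above every DEHP library. Its log2 change was 0.60 ± 0.08 (adjusted p = 1.68e-06) after the combination. The difference between combination and DEHP was 0.23 ± 0.08 (adjusted p = 0.29) and was not called. Ndufa7 changed by 0.44 ± 0.09 (adjusted p = 0.000637) after DEHP and 0.53 ± 0.09 (adjusted p = 5.41e-05) after the combination. With the trend removed it changed by 0.29 ± 0.07 (adjusted p = 0.00187) and 0.26 ± 0.06 (adjusted p = 0.00377). Ndufb9 rose by 0.27 ± 0.07 (adjusted p = 0.00537) after ethanol, a change that became 0.12 ± 0.06 (adjusted p = 0.132) and lost its call. Ndufa1, of 516 bases, was the member called lower after the combination with the trend removed (-0.32 ± 0.11 (adjusted p = 0.0314)). Before removal its change was -0.05 ± 0.12 (adjusted p = 0.771), so that call rests on the removal.

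Some complex I members were not called against vehicle after the combination. Ndufa4, at 528, 648 and 714 FPKM in vehicle and 654, 759.6 and 842 in the combination, changed by 0.21 ± 0.10 (adjusted p = 0.101). Its relative Ndufa4l2, known as a hypoxia-responsive gene, was low in every group and was called in none. It was at 0.47, 1.22 and 2.42 FPKM in vehicle, 1.57, 2.13 and 3.01 in ethanol, 0.33, 0.71 and 1.29 in DEHP and 0.63, 1.32 and 2.77 in the combination. Ndufa1, Ndufa6, Ndufa13 and Ndufs1 were not called before removal either.

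**Figure D3:**
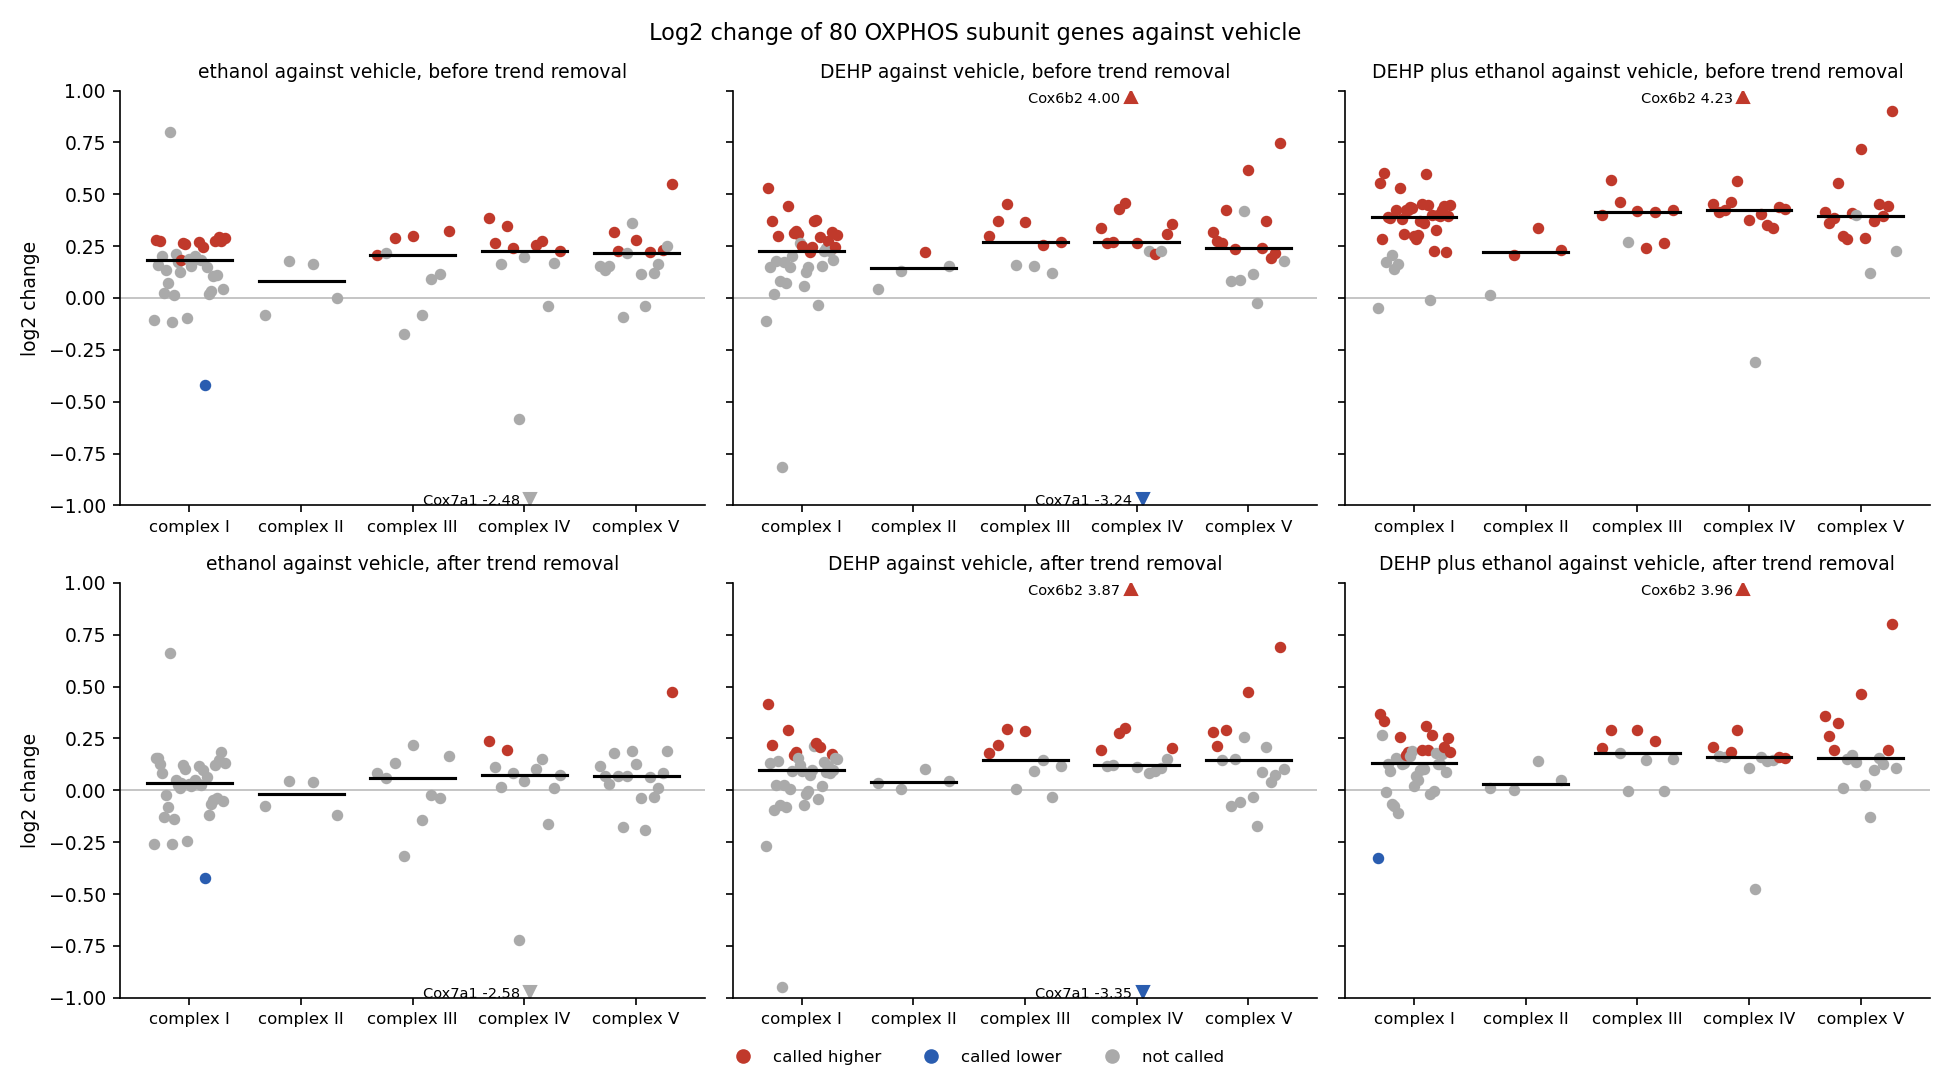
Log2 change against vehicle of each member (y axis) by complex (x axis) after ethanol, DEHP and the combination, before (top) and after (bottom) removal of the length trend. Members called higher are red, those called lower are blue and those not called are grey. Axes end at ±1.0, so Cox6b2 and Cox7a1 are drawn as labelled triangles at the edge in the panels where their change is larger. After the combination 68 of 80 members, Cox6b2 included, are called higher before and 29 after removal.

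In complex II, which also serves the citric acid cycle, 3 of 4 members were called after the combination and 1 after DEHP before removal of the trend. Sdha, the flavoprotein, was at 163, 186 and 206 FPKM in vehicle, 151, 168 and 183 in ethanol, 151, 199 and 222 in DEHP and 167, 186 and 207 in the combination. The groups overlapped, with log2 changes of -0.08 ± 0.07 (adjusted p = 0.397), 0.04 ± 0.07 (adjusted p = 0.692) and 0.01 ± 0.07 (adjusted p = 0.9). Sdhb, the iron-sulfur subunit, had 179, 216 and 224 FPKM in vehicle and 221, 245 and 266 in the combination, a change of 0.21 ± 0.08 (adjusted p = 0.035). After removal of the trend it was 0.00 ± 0.07 (adjusted p = 0.994), and its sign depended on the libraries used. Sdhc, a membrane anchor, was at 126, 135 and 146 FPKM in vehicle, 132, 148 and 154 in ethanol, 136, 165 and 173 in DEHP and 156, 177 and 180.4 in the combination. All its combination libraries were above vehicle, and it rose by 0.22 ± 0.07 (adjusted p = 0.0184) after DEHP and 0.34 ± 0.07 (adjusted p = 0.000401) after the combination. Once the trend was removed the changes were 0.10 ± 0.06 (adjusted p = 0.229) and 0.14 ± 0.06 (adjusted p = 0.0799), and neither was called. Sdhd, the other anchor, rose by 0.23 ± 0.07 (adjusted p = 0.00743) after the combination and stood 0.23 ± 0.07 (adjusted p = 0.00882) above ethanol. Without the length trend it stood 0.17 ± 0.06 (adjusted p = 0.0495) above ethanol. No member of complex II was called against vehicle once the trend was removed.

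In complex III, all 4 members of the core group rose after the combination before removal of the trend, and 3 did after it. Uqcrfs1, the Rieske iron-sulfur protein, was at 168, 188 and 203 FPKM in vehicle, 175, 189 and 202 in ethanol, 209, 226 and 243 in DEHP and 241, 246 and 266 in the combination. Ethanol overlapped vehicle, while both groups with DEHP lay above it. The log2 changes were 0.09 ± 0.06 (adjusted p = 0.255) after ethanol, 0.26 ± 0.06 (adjusted p = 0.00304) after DEHP and 0.42 ± 0.06 (adjusted p = 8.83e-06) after the combination. With the trend removed, the last was 0.24 ± 0.05 (adjusted p = 0.00162). Cyc1, cytochrome c1, which hands electrons to cytochrome c, was at 193, 215 and 231 FPKM in vehicle, 231, 235 and 246 in ethanol, 245, 270.3 and 296 in DEHP and 251, 289 and 314 in the combination. Each treated library exceeded each vehicle library, and the changes were 0.21 ± 0.07 (adjusted p = 0.0373), 0.30 ± 0.07 (adjusted p = 0.00388) and 0.40 ± 0.07 (adjusted p = 0.000147). After removal of the trend, 0.08 ± 0.07 (adjusted p = 0.378) remained after ethanol, 0.18 ± 0.07 (adjusted p = 0.0495) after DEHP and 0.20 ± 0.07 (adjusted p = 0.0217) after the combination. Cyc1 is thus a member whose ethanol libraries stand apart from vehicle in FPKM and whose call after ethanol was lost with the trend.

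Of the 2 large core proteins, Uqcrc1 was at 137, 166 and 196 FPKM in vehicle, 179, 194 and 209 in ethanol, 192, 209.7 and 250.01 in DEHP and 192, 225 and 248 in the combination. It rose by 0.30 ± 0.09 (adjusted p = 0.0148), 0.37 ± 0.09 (adjusted p = 0.00371) and 0.42 ± 0.09 (adjusted p = 0.000708). The first of these calls was lost with the trend removed, and the others were kept. Uqcrc2 was at 106, 127 and 135, 104, 112 and 117, 113, 141 and 162 and 132, 146 and 163 FPKM in the same order. Its changes were -0.08 ± 0.07 (adjusted p = 0.399), 0.15 ± 0.07 (adjusted p = 0.115) and 0.24 ± 0.07 (adjusted p = 0.01), and the combination stood 0.32 ± 0.07 (adjusted p = 0.00119) above ethanol. Removal of the trend took away the call of Uqcrc2 after the combination against vehicle, and its call against ethanol was kept. The difference between the 2 genes was not tested. Of the 5 small subunits, 4 rose after the combination before and 1 after removal. Uqcrq had the highest mean FPKM of complex III, with 795, 935 and 1035 in vehicle and 1206, 1234 and 1385 in the combination. Its changes of 0.32 ± 0.09 (adjusted p = 0.00804) after ethanol and 0.42 ± 0.09 (adjusted p = 0.000471) after the combination became 0.16 ± 0.06 (adjusted p = 0.0616) and 0.15 ± 0.06 (adjusted p = 0.081). Uqcr10 kept its call after the combination, with 0.57 ± 0.10 (adjusted p = 5.86e-05) before and 0.29 ± 0.08 (adjusted p = 0.0057) after removal. Uqcr11 kept its call after DEHP, with 0.45 ± 0.09 (adjusted p = 0.000714) and 0.29 ± 0.07 (adjusted p = 0.00364).

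In complex IV, the 10 members other than Cox6b2, Cox7a1 and Cox7a2l rose after the combination before removal of the trend, and 5 of them did after it. Cox4i1, the common form of a regulatory subunit (chr8:120668225-120674209), was at 579, 713 and 725 FPKM in vehicle, 723, 858 and 914 in ethanol, 755, 866 and 941 in DEHP and 854, 930.2 and 1029 in the combination. It rose by 0.39 ± 0.09 (adjusted p = 0.00221), 0.34 ± 0.09 (adjusted p = 0.0059) and 0.45 ± 0.09 (adjusted p = 0.000238) before removal. It rose by 0.24 ± 0.07 (adjusted p = 0.0158), 0.19 ± 0.07 (adjusted p = 0.0475) and 0.21 ± 0.07 (adjusted p = 0.0271) after removal. Cox6a1 was at 580.1, 637 and 736, 677, 805 and 909.9, 812, 898 and 966 and 832, 897 and 1012 FPKM in the same order. It rose by 0.35 ± 0.09 (adjusted p = 0.00651), 0.43 ± 0.09 (adjusted p = 0.00115) and 0.46 ± 0.09 (adjusted p = 0.000339) before removal, and by 0.19 ± 0.07 (adjusted p = 0.0457), 0.27 ± 0.07 (adjusted p = 0.0056) and 0.19 ± 0.07 (adjusted p = 0.0471) after. Cox4i1 and Cox6a1 are the members that rose after ethanol with the trend removed, with Atp5sl, which is grouped with complex V by symbol alone. Cox5a changed by 0.26 ± 0.07 (adjusted p = 0.0103), 0.26 ± 0.07 (adjusted p = 0.0101) and 0.42 ± 0.07 (adjusted p = 0.000109), none of which was called after removal. Cox7a2l rose by 0.28 ± 0.07 (adjusted p = 0.00561) after ethanol and by 0.35 ± 0.07 (adjusted p = 0.00041) after the combination, with 0.15 ± 0.07 (adjusted p = 0.108) and 0.14 ± 0.07 (adjusted p = 0.111) after removal.

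Cox6b1 and Cox6b2 encode forms of the same subunit on the intermembrane side of complex IV. Cox6b1 (chr7:30616971-30626114) was at 378, 423 and 463 FPKM in vehicle, 435, 483 and 538 in ethanol, 507, 599 and 653 in DEHP and 592, 629 and 720.3 in the combination. Both groups with DEHP lay above all vehicle libraries. The log2 changes were 0.46 ± 0.08 (adjusted p = 9.08e-05) after DEHP and 0.57 ± 0.08 (adjusted p = 3.49e-06) after the combination. Once the trend was removed they were 0.30 ± 0.06 (adjusted p = 0.000501) and 0.29 ± 0.06 (adjusted p = 0.000559). After ethanol the change was 0.24 ± 0.08 (adjusted p = 0.0216), and 0.09 ± 0.06 (adjusted p = 0.295) with the trend removed. Cox6b2 (chr7:4751792-4753094) was near 0 without DEHP, at 0, 0.5 and 0.85 FPKM in vehicle and 0, 0.33 and 0.65 in ethanol. It was at 2.98, 8.28 and 13.1 FPKM in DEHP and 3.5, 9.24 and 14.4 in the combination. In expected counts, the vehicle libraries had 2, 2, 0, 1, 1 and 2, and the ethanol libraries 0, 1, 2, 0, 1 and 1. The DEHP libraries had 40, 9, 32, 20, 12 and 29, and the combination libraries 41, 26, 27, 21, 44 and 10. All 12 libraries with DEHP thus exceeded all 12 without it. These 12 are also the only ones in which it reached 1 FPKM, so it passed the minimum only through the groups where it was high. Its changes against the groups without DEHP are therefore a description, given with no test. The fitted log2 changes were 4.0 ± 0.53 (SE) after DEHP and 4.23 ± 0.52 (SE) after the combination. Their size is imprecise because so few reads stand behind the vehicle level. Removing the trend left 3.87 ± 0.52 (SE) and 3.96 ± 0.51 (SE). Even in the combination, the median of Cox6b2 (9.24 FPKM) was far below that of Cox6b1 (629 FPKM), both per length.

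**Figure D4:**
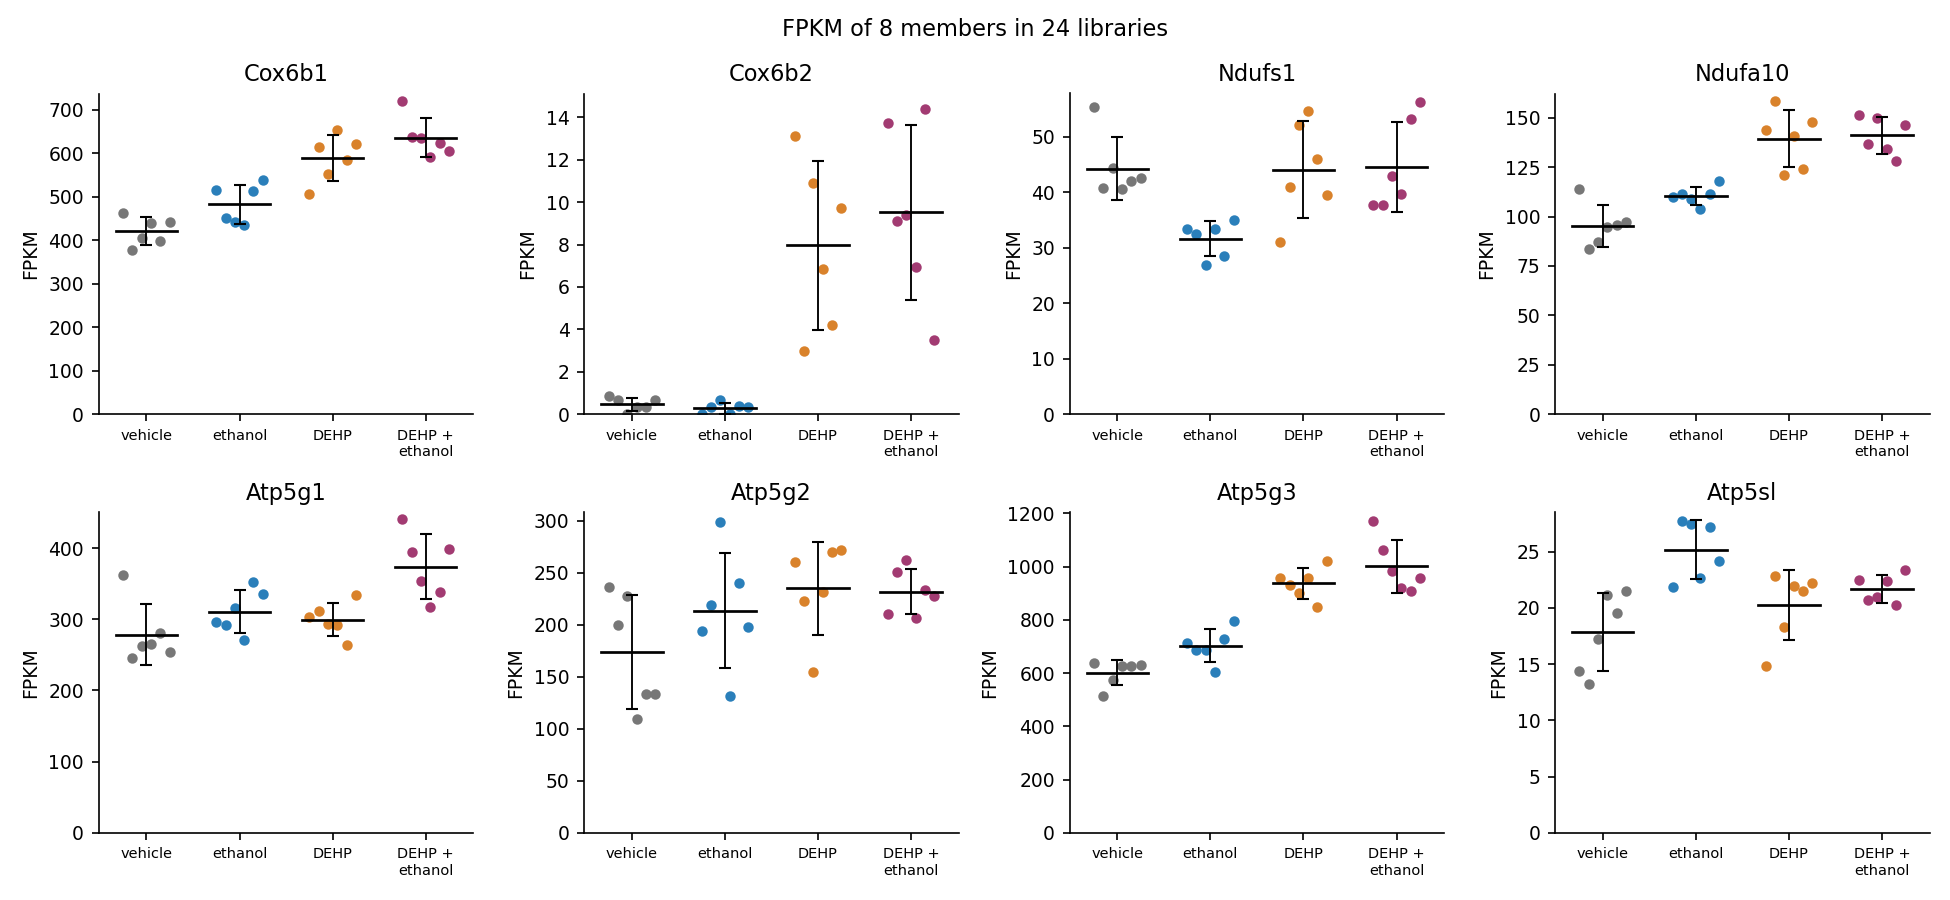
FPKM (y axis) of 8 members in vehicle, ethanol, DEHP and combination libraries (x axis), 1 point per library, with bars at the mean ± SD of 6 libraries. Cox6b2 lies at or below 0.85 FPKM in every library without DEHP and at 2.98 or above in every library with it, Ndufs1 is lowest in ethanol, and Atp5g3 lies above Atp5g1 and Atp5g2 in every group.

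The muscle-type and other tissue-type isoforms of complex IV need their libraries beside them. Cox7a1, Cox6a2 and Cox8b were at 166, 207 and 197 FPKM in vehicle replicate 1 and at 134, 184 and 166 FPKM in combination replicate 6. In the other 22 libraries Cox6a2 reached 0.52 FPKM, Cox8b 2.46 FPKM and Cox7a1 11.05 FPKM at most. These are the 2 libraries with high skeletal muscle markers. Cox7a1 was the only member called lower after DEHP (-3.24 ± 1.09 (adjusted p = 0.0286)) and the only one called for the interaction (5.41 ± 1.49 (adjusted p = 0.0285)), where 6.41% of all genes were called in either direction. Without vehicle replicate 1 its DEHP change was -0.57 and its interaction 2.73, without combination replicate 6 the interaction was 3.32, and none of these was called. The DEHP call was also lost without DEHP replicate 2 or 6. Leaving out the 3 libraries gave -0.54 after DEHP and an interaction of 0.64, while 30, 43 and 66 members rose after ethanol, DEHP and the combination. After the combination, Cox7a1 changed by 2.36 without vehicle replicate 1 and by -2.36 without combination replicate 6. Cox4i2, the lung-type and hypoxia-related form of Cox4i1, reached 0.49 FPKM at most.

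**Figure D5:**
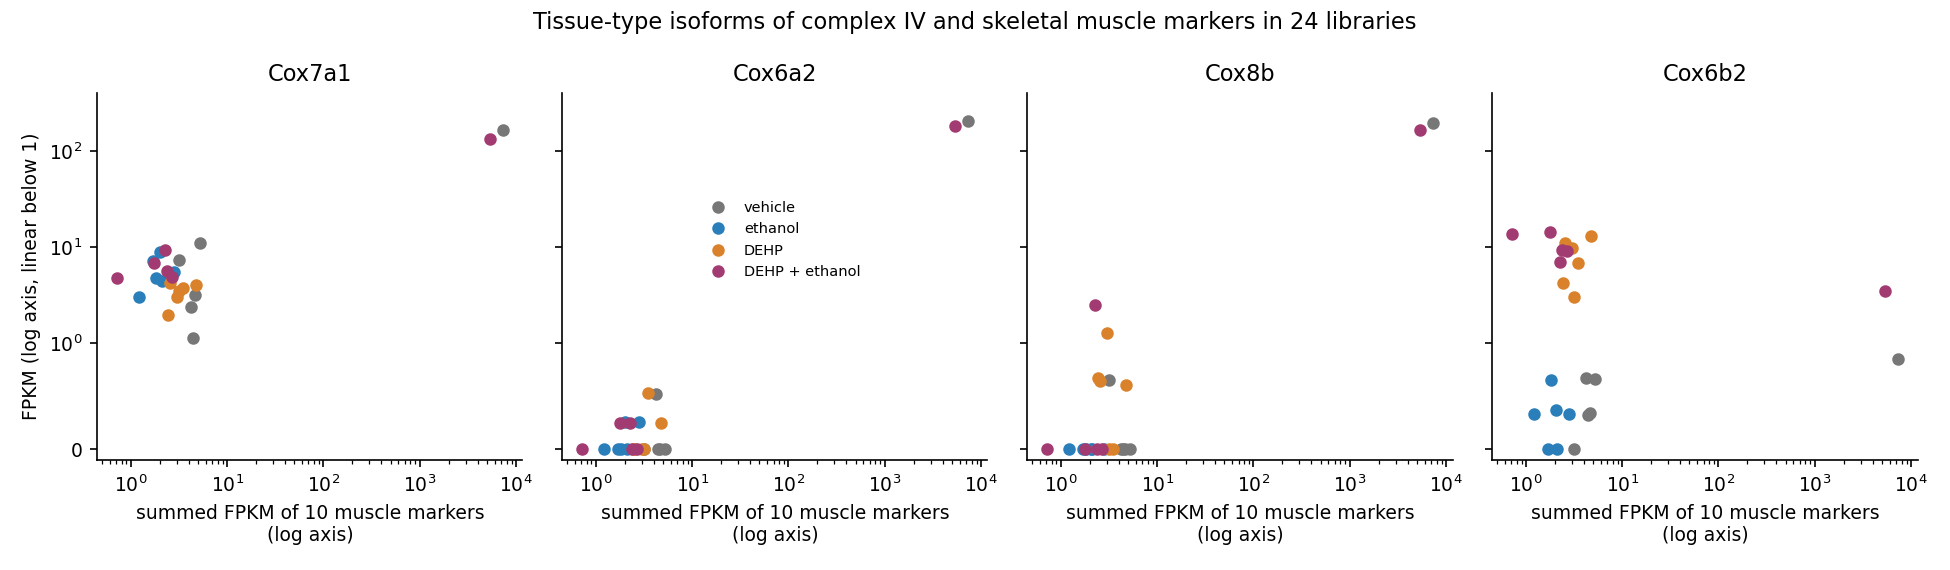
FPKM of Cox7a1, Cox6a2, Cox8b and Cox6b2 (y axis, log scale, linear below 1) against the summed FPKM of 10 skeletal muscle markers (x axis, log scale), 1 point per library. Vehicle replicate 1 (7361) and combination replicate 6 (5371) hold the high values of Cox7a1, Cox6a2 and Cox8b, whereas Cox6b2 is high in the DEHP and combination libraries at low marker sums.

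In complex V, all 5 members of the catalytic F1 head rose after the combination before removal of the trend and 4 did after it, and of 10 members of the membrane part and stalk 8 did before and 2 after. Atp5a1, the alpha subunit, was at 422, 462 and 539.8 FPKM in vehicle, 477, 497 and 522 in ethanol, 536, 589.96 and 638 in DEHP and 567, 646 and 678 in the combination. It rose by 0.32 ± 0.07 (adjusted p = 0.00185) after DEHP and 0.41 ± 0.07 (adjusted p = 7.29e-05) after the combination. Without the length trend its transcript of 2219 bases kept 0.28 ± 0.07 (adjusted p = 0.0039) and 0.36 ± 0.07 (adjusted p = 0.000276). Atp5b, the catalytic beta subunit, was at 602, 686 and 789.8 FPKM in vehicle, 676, 725 and 749.7 in ethanol, 776, 854 and 904 in DEHP and 795, 887 and 998 in the combination. It rose by 0.28 ± 0.07 (adjusted p = 0.00635) and 0.36 ± 0.07 (adjusted p = 0.000386) in the latter 2, with 0.22 ± 0.07 (adjusted p = 0.0295) and 0.26 ± 0.07 (adjusted p = 0.00636) after removal. Atp5d, the delta subunit of the rotor, rose in all 3 comparisons, by 0.32 ± 0.09 (adjusted p = 0.0103), 0.42 ± 0.09 (adjusted p = 0.00108) and 0.55 ± 0.09 (adjusted p = 3.7e-05). Its call after ethanol was lost with the trend removed, and the calls after DEHP and the combination were kept. Atp5o, which links head and stalk, rose by 0.44 ± 0.07 (adjusted p = 1.31e-05) after the combination and by 0.20 ± 0.06 (adjusted p = 0.015) after removal. Atp5f1, the b subunit of the stalk, stood 0.37 ± 0.09 (adjusted p = 0.00178) above ethanol.

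The 3 c-subunit genes, which share none of the 4 promoter motifs apart from the CCAAT box of Atp5g1 and Atp5g3, differed in their calls. Atp5g3 (chr2:73908447-73912464) was at 515, 626 and 638 FPKM in vehicle, 604, 699.9 and 794 in ethanol, 849.6, 944 and 1022 in DEHP and 907, 970.2 and 1172 in the combination. Both groups with DEHP lay above all other libraries. It rose by 0.28 ± 0.08 (adjusted p = 0.016) after ethanol, 0.62 ± 0.08 (adjusted p = 6.65e-06) after DEHP and 0.72 ± 0.08 (adjusted p = 4.54e-07) after the combination. The last is the smallest adjusted p of complex V there. With the trend removed, 0.47 ± 0.07 (adjusted p = 9.03e-06) and 0.47 ± 0.07 (adjusted p = 7.02e-06) remained after DEHP and the combination. The ethanol change of 0.13 ± 0.07 (adjusted p = 0.16) lost its call. Atp5g1 was at 246, 264 and 362 FPKM in vehicle, 271, 306 and 353 in ethanol, 264, 298 and 335 in DEHP and 318, 374 and 441 in the combination. It was called after the combination (0.41 ± 0.10 (adjusted p = 0.00196)) and not after DEHP (0.09 ± 0.10 (adjusted p = 0.549)), and not in any comparison with the trend removed. Atp5g2 spread widely within groups, at 109, 167 and 236 FPKM in vehicle, 131, 209 and 299 in ethanol, 154, 246 and 272 in DEHP and 207, 231 and 262 in the combination. Its changes of 0.36 ± 0.18 (adjusted p = 0.139), 0.42 ± 0.18 (adjusted p = 0.0947) and 0.40 ± 0.18 (adjusted p = 0.0909) were not called. The difference between the 3 genes was not tested, and reads of processed copies of such genes elsewhere in the genome could not be told apart in these tables.

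Atp5sl and Atp5s match the symbol rule and are known as assembly-related proteins. Atp5sl was at 13.3, 18.4 and 21.5 FPKM in vehicle, 21.9, 25.7 and 27.7 in ethanol, 14.8, 21.7 and 22.9 in DEHP and 20.2, 21.7 and 23.4 in the combination. Thus all ethanol libraries lay above all vehicle libraries. It rose after ethanol by 0.55 ± 0.12 (adjusted p = 0.00128), and by 0.47 ± 0.11 (adjusted p = 0.00433) with the trend removed. The log2 difference of the combination from ethanol was -0.32 ± 0.11 (adjusted p = 0.0364). Atp5s, chosen for mention after its values were seen, was at 0.88, 1.28 and 1.61 FPKM in vehicle and 1.74, 2.12 and 3.5 in the combination. It rose by 0.75 ± 0.19 (adjusted p = 0.00561) after DEHP and 0.90 ± 0.19 (adjusted p = 0.000663) after the combination.

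Adding ethanol to DEHP changed no member past the threshold. Between the combination and DEHP, 78 of 80 members were above 0 with a median log2 difference of 0.12, none was called by edgeR or DESeq2, and 20 had an unadjusted p below 0.05. Of all genes, 0.122% were called, and genes under 1000 bases that are no members had a median of 0.11. The members' counts above 0 and of unadjusted p, here and after removal, were not set against all genes. After removal of the trend, 60 of 80 members were above 0, their median was 0.04 (-0.0001 for the short genes that are no members), 3 had an unadjusted p below 0.05, and 0.0187% of all genes were called. Atp5g1, for one, differed by 0.32 ± 0.10 (adjusted p = 0.22). Adding DEHP to ethanol did change members: 38 were higher and 1 lower in the combination than in ethanol, where 15.1% and 12.7% of all genes were, with a median of 0.20. Of all genes called there, 54.4% were higher, and 70.6% without TMM factors or 78.8% on TPM, where 59 and 68 members were higher. After removal 23 were higher and 1 lower, where 14.5% and 13.9% were, with a median of 0.11, and all 23 had been called before. Without Cox6b2 the counts are 37 and 22 of 79. Among those called both before and after removal, Ndufa5, an accessory subunit of complex I, was higher by 0.54 ± 0.11 (adjusted p = 0.000328) before and 0.41 ± 0.10 (adjusted p = 0.00386) after it. Ndufb3, another accessory subunit, was higher by 0.53 ± 0.10 (adjusted p = 0.000345) and 0.43 ± 0.09 (adjusted p = 0.000922), and the core subunit Ndufv2 by 0.35 ± 0.06 (adjusted p = 0.000134) and 0.30 ± 0.06 (adjusted p = 0.000575). Atp5g3 was higher by 0.44 ± 0.08 (adjusted p = 0.000278) and 0.34 ± 0.07 (adjusted p = 0.000321). Ndufa5 was at 86.2, 102 and 111 FPKM in ethanol, 99.2, 107 and 140.4 in vehicle and 135, 151 and 176 in the combination. Ethanol and vehicle overlapped, and its ethanol change of -0.12 ± 0.11 (adjusted p = 0.426) was not called.

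The interaction of both agents had a median of -0.04 over the members, 9 members had an unadjusted p below 0.05 (a count not set against all genes), and Cox7a1 was called. Once the trend was removed the median was 0.00, Cox7a1 was again the one call, and 7.09% of all genes were called. Apart from Cox7a1, no departure from a sum of both log2 changes was called for a member.

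Genes that build or serve the complexes were read in lists that hold no member. Their counts that rose stand against 14.2%, 14.4% and 19.3% of all genes after ethanol, DEHP and the combination, and 12.8%, 13.1% and 15.6% with the trend removed. Of 14 complex I assembly factors tested (of 16), none was called after ethanol, 2 rose (14.3%) and 1 fell after DEHP, and 6 rose (42.9%) after the combination, with a median of 0.22. Without the length trend, 2 rose after DEHP and 3 (21.4%) after the combination. The DEHP share is that of all genes. Timmdc1, a membrane assembly factor, rose by 0.28 ± 0.08 (adjusted p = 0.0116) after DEHP and 0.42 ± 0.08 (adjusted p = 0.000197) after the combination, and Ndufaf4 fell by 0.50 ± 0.14 (adjusted p = 0.0101) after DEHP. Of 22 complex IV assembly factors, 3 rose (13.6%, about the share of all genes) and 2 fell after ethanol, 6 rose (27.3%) after DEHP and 9 (40.9%) after the combination (median 0.22). After removal 2, 5 and 3 rose, and 1 fell after ethanol and 1 after the combination. Among them the copper carriers Cox17 and Cox19 rose after DEHP, by 0.51 ± 0.11 (adjusted p = 0.00182) and 0.43 ± 0.09 (adjusted p = 0.000964), and Coa7 rose after ethanol by 0.44 ± 0.10 (adjusted p = 0.00186). For complex II, 1 of 4 rose in each comparison, which was Sdhaf1 (0.56 ± 0.11 (adjusted p = 0.000925) after ethanol), and none rose after the combination once the trend was removed. For complex III 1, 2 and 5 of 6 rose before and 0, 1 and 1 after removal, with Uqcc3 at 0.44 ± 0.10 (adjusted p = 0.000967) after the combination before it. For complex V, 3 of 4 rose after DEHP and the combination, before (median 0.38 after DEHP) and after removal. These included Atpif1, the inhibitor of ATP hydrolysis, at 8.84 ± 1.46 FPKM (SD, n = 6) in vehicle and 14.8 ± 1.57 in DEHP (0.71 ± 0.13 (adjusted p = 0.000157)), and Tmem70, which helps assemble the c ring (0.38 ± 0.07 (adjusted p = 0.000129)).

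Among electron carriers outside the complexes, more rose with DEHP or the combination than with ethanol. Of 15 tested (of 16), 10 rose and 2 fell after DEHP (median 0.37), 10 rose and 1 fell after the combination (median 0.42), and 1 rose and 1 fell after ethanol, with 8, 10 and 0 that rose once the trend was removed. Etfb, a subunit of the electron transfer flavoprotein that carries electrons from fatty acid oxidation, was at 394 ± 27.7 FPKM (SD, n = 6) in vehicle, 610 ± 34.7 in DEHP and 655 ± 76.0 in the combination, a log2 change of 0.61 ± 0.09 (adjusted p = 1.64e-05) after DEHP. Coq4, of ubiquinone synthesis, went from 3.17 ± 0.44 to 6.74 ± 0.78 FPKM after DEHP (1.07 ± 0.13 (adjusted p = 1.84e-06)). Etfdh, which passes these electrons to ubiquinone, was at 101 ± 7.4 FPKM in vehicle and 78.0 ± 7.12 in ethanol, and fell by 0.30 ± 0.08 (adjusted p = 0.0096). Among 11 transcriptional regulators of respiratory genes, before removal of the trend 3 rose and 2 fell after ethanol, none was called after DEHP (median -0.20), and 1 fell after the combination. Once it was removed, 3 rose and 2 fell after ethanol, 1 rose after DEHP (median -0.12), and 1 rose and 1 fell after the combination. The coactivator Ppargc1a fell after ethanol from 2.29 ± 0.37 to 1.07 ± 0.22 FPKM (-1.04 ± 0.19 (adjusted p = 0.00041)), and the nuclear receptor Esrra rose from 15.8 ± 3.97 to 24.03 ± 3.28 FPKM (0.68 ± 0.13 (adjusted p = 0.000647)). Pprc1 fell after the combination from 3.12 ± 0.79 to 1.58 ± 0.67 FPKM (-1.0 ± 0.23 (adjusted p = 0.00161)).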

How the data were processed

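RNA of mouse liver was sequenced in 24 TruSeq libraries on Illumina HiSeq, per the labels' protocols. The submitters' processing notes name Cuffdiff, mm10 and GRCm38; which aligner and counting program were used, and whether strand was, is not given in the sources used here. For each library the authors deposited an expected count, an FPKM value and a length for every gene above 0. The expected counts are estimates, of which 94.54 to 95.32% are whole, and were rounded. An absent gene was set to 0. Groups follow the sample titles.

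Members needed at least 1 FPKM in 6 libraries, as did all 10697 genes tested. Counts were compared in 1 edgeR 4.0.16 model over the 4 groups (R 4.3.3, quasi-likelihood test, TMM factors), with Benjamini-Hochberg adjustment over all genes and a threshold of 0.05. The length trend of a library is a lowess curve (f = 0.3) of log2 CPM (prior count 2) minus the gene's mean against log2 length, and its removal enters edgeR as an offset. DESeq2 1.42.0, limma 3.58.1 on log2(FPKM + 1), log2(FPKM + 0.1) and log2(TPM + 1) (TPM computed from the deposited FPKM), other scaling and filters, a replicate block, and leaving out libraries were alternatives. The statistics were tested on simulated counts. Gene spans and promoters come from RefSeq tables of GRCm38.p6.

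The genes named are, per comparison and complex, the 2 called members with the smallest adjusted p in each direction, 21 members picked by role (1 is not reported here), the tissue-type isoforms, up to 3 called both before and after removal, and 2 called genes per other list. Members, lists and markers were chosen with earlier results of these data known.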

Additional observations from a re-analysis of the deposited data

Results flagged for a closer look

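Within groups of 6 libraries, 176 sets of values, among them those of 43 members or isoforms named, were screened for a library far from the other 5, by Dixon's test. By chance about 1 in 20 such sets (5%) pass this test, and 13 did.

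Of these, 6 are the muscle-type isoforms of complex IV in the 2 libraries with skeletal muscle transcripts. In vehicle replicate 1, Cox6a2 was at 207 FPKM (207.49), Cox7a1 at 166 FPKM (165.72) and Cox8b at 197.0 FPKM. In combination replicate 6 they were at 184 FPKM (183.52), 134 FPKM (133.97) and 166 FPKM (165.8). The interaction of Cox7a1 (5.41 on the log2 scale) tests whether the ethanol effect differs with and without DEHP. It was called with all libraries and not called without either of these libraries.

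Vehicle replicate 1 was also the highest of its group for Atp5g1 (362.11 FPKM, next 280.58), Ndufs1 (55.36 FPKM, next 44.33) and Ndufv2 (68.94 FPKM, next 59.43). Combination replicate 1, whose length trend at 500 bases was the highest of its group, was the highest for Cox6b1 (720.28 FPKM, next 636.72) and Ndufa7 (302.7 FPKM, next 256.43). Ethanol replicate 4, whose length trend at 500 bases was the lowest of its group, was the lowest for Ndufs8 (105.28 FPKM, next 122.12). Ethanol replicate 6 was the highest for Ndufv2 (63.88 FPKM, next 58.32). The part of the muscle transcripts or of the length trend in these values was not tested.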

How the results depend on the processing

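The counts of members that rose kept within 1.5 times of the reported value under RLE factors and no filter on low values in every comparison, and with a fit of only the groups compared in the 5 comparisons of 2 groups. The counts against vehicle after DEHP and the combination moved further only where a length trend was removed, while those after ethanol, against ethanol and for the interaction moved with the scaling or the tool as well or instead. After ethanol (28 reported) the count was 3 with the trend removed, 6 with a straight line in log2 length removed, 3 with a trend fitted without the members, 11 without TMM factors, 18 in limma on log2(FPKM + 0.1), 3 in limma on TPM, 2 with a replicate block and the trend removed, and 5 without the 3 libraries that hold transcripts of other tissues and the trend removed. With the trend already removed (3 reported) it was 6 for a straight line and 5 without those 3 libraries. After DEHP (45) the trend, straight-line, trend without members, replicate block with trend, and 3-library with trend settings gave 22, 19, 25, 18 and 23. After the combination (68) they gave 29, 24, 32, 27 and 28, and for the combination against ethanol (38) 23, 18, 25, 20 and 20, with 59 without TMM factors and 68 on TPM. The interaction call (1) became 0 with DESeq2, with limma on each scale, with the replicate block, without the 3 libraries, and with either together with removal of the trend.

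Leaving out 1 library at a time gave 19 to 43 members after ethanol (2 to 6 with the trend removed), 37 to 49 after DEHP (14 to 27), 65 to 69 after the combination (20 to 33), 0 to 0 against DEHP (0 to 0), 30 to 39 against ethanol (17 to 26) and 0 to 2 for the interaction (0 to 2). Of 100 results on named members, 9 lost their call in at least 1 such run: Cyc1 and Cox7a2 after ethanol, Sdhc, Cox7a1 and Cox7a2l after DEHP, Ndufv1 and Sdhb after the combination, Atp5sl against ethanol, and the interaction of Cox7a1. Among values called in all libraries or in the alternative, signs reversed in the combination for Sdhb (-0.0009 with the replicate block and -0.0122 without the 3 libraries, both with the trend removed), Sdhd (-0.0013 without the 3 libraries and the trend removed) and Cox7a1 (-0.31 with all libraries, 2.36 without vehicle replicate 1 and -2.36 without combination replicate 6). Of values not called either way, Cox7a1 after ethanol went from -2.48 to 0.19 without vehicle replicate 1 and Ndufa4l2 after the combination from 0.14 to -0.12 without combination replicate 6, and Sdha after the combination and Ndufs1 after DEHP and the combination, all near 0, also changed sign. The cause was not tested.

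Replicate numbers did not pair libraries: correlations of same-numbered libraries ran from -0.2147 to 0.2109 over 36 pairs, 6 of them above 0.1. The replicate block gave 27, 44, 68, 0, 36 and 0 members that rose in the 6 comparisons. No batch is given in the labels. The depth of 7324793 to 8016662 counts limits members with few counts. Among these are Cox6b2, Atp5s, Ndufa4l2 and, outside the libraries with skeletal muscle transcripts, Cox7a1.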
